A study of Mus musculus with 4 samples.

Results

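CpGs whose cytosines were both read in every library, the forward cytosine and the reverse cytosine one base further on, made up 262021 of 3485585 nuclear CpGs listed (7.52%) in a bisulfite data set from mouse liver. The data set compared 2 libraries from Pnpla7-/- mice (KO) with 2 libraries from Pnpla7+/+ mice (WT), all from C57BL6/N animals aged 6 weeks. Pnpla7 encodes a lysophospholipase that acts on lysophosphatidylcholine. A CpG belonged to the set when it lay on chromosomes 1 to 19 and each strand had at least 10 reads in all 4 libraries. The rule used read depth and no methylation value, so levels on the strands were compared without having chosen the CpGs. The labels give neither the sex of the mice nor the allele design, and they do not say whether a genotype's libraries came from different animals. The p-values therefore measure no more than the spread between these libraries, which may be technical. Those for strand differences at single CpGs, and for their change with genotype, reflect read counts. Those for KO against WT at single CpGs rest mostly on read counts and on a spread pooled over CpGs.

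In a CpG the 2 cytosines face each other on opposite strands, because the dinucleotide reads the same in both directions. After replication DNMT1, guided by UHRF1, copies methylation from the old strand to the new one. A CpG methylated on 1 strand only, called hemimethylated, is the substrate of that step and is the state that passive loss passes through. In reduced representation bisulfite sequencing the genome is cut at fixed sites, here the MspI site CCGG and the TaqI site TCGA. Bisulfite turns unmethylated cytosine into uracil, after which the strands are no longer complementary and are amplified and counted as separate molecules.

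The CpGs read on both strands lay mostly in unmethylated, CpG-dense sequence near gene ends. To show such sequence, the 3 promoter windows holding most of these CpGs follow, 5′ to 3′ on the gene's own strand, from RefSeq on GRCm38.p6 (mm10). Each window runs from 250 bases before to 50 after the annotated start, and capitals mark the CpGs read on both strands.
E130102H24Rik, chr4:101356199-101356498 (- strand): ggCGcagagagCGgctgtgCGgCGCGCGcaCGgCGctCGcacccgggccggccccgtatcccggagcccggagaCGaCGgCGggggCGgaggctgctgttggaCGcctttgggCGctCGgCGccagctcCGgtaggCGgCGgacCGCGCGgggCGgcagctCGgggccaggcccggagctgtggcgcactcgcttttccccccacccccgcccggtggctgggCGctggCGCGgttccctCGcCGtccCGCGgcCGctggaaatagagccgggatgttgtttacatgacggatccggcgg
1700055D16Rik, chr6:134792110-134792409 (+ strand): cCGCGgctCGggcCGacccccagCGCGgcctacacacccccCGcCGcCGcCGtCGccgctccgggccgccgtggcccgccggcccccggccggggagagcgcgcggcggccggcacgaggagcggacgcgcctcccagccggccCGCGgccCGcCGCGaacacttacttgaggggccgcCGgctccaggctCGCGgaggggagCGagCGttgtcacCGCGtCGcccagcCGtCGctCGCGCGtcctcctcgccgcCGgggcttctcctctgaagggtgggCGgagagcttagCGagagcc
Cdkn2aip, chr8:47713882-47714181 (- strand): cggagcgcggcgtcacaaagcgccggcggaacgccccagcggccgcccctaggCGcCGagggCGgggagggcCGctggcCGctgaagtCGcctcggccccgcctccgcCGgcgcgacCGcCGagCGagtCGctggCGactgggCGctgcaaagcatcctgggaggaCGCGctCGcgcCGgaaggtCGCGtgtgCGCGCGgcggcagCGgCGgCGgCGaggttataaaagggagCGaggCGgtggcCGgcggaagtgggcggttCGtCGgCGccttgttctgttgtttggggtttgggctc
Of the CpGs in these windows, 33 of 47 belonged to the set in E130102H24Rik, 32 of 53 in 1700055D16Rik and 32 of 51 in Cdkn2aip, whose product binds the tumour suppressor ARF. In the E130102H24Rik window the forward strand averaged 0.397% and 0.455% in the KO libraries and 0.613% and 0% in the WT libraries. The reverse strand there averaged 0.48% and 0.577% in KO and 0.623% and 0.482% in WT. No CpG in these windows was called for a strand difference by the test described further on.

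Depth was similar across libraries. The tracks held 59953688 and 60535892 reads over cytosines in KO replicates 1 and 2 and 50413170 and 59437109 in WT replicates 1 and 2. The median forward cytosine of the set had 24 and 22 reads in KO and 19 and 23 in WT, and the medians of the reverse cytosine were identical. A strand with 5 of 10 reads methylated has a 95% Clopper-Pearson interval (exact) from 18.7% to 81.3%, and a strand with 0 of 10 allows a level up to 30%. These limits reflect counting error alone, because the amplified reads carry no molecular identifiers. The set shrank to 43707 CpGs at a minimum of 20 reads on each strand and to 5023 at 30 reads. CpGs whose shallowest strand had 10 or 11 reads, just inside the rule, averaged 31.9% and 31.7% in KO and 31.8% and 31.6% in WT. Those with 8 or 9 reads, just outside it, averaged 36.2% and 36.1% in KO and 36.0% and 35.9% in WT.

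CpGs read on both strands were methylated at 27.1% and 27.0% on average in the KO libraries and at 27.1% and 26.9% in the WT libraries. The other 1303987 autosomal CpGs that reached 10 reads in each library on summed strands averaged 48.4% and 48.5% in KO and 48.2% and 48.0% in WT. The set was lower in all 4 libraries, by 21.2 ± 0.206 points (SD, n = 4; two-sided exact sign-flip p = 0.125, the smallest that 4 libraries allow). Levels below 20% were found at 67.1% of the set against 41.2% of the other CpGs, levels from 20% to 80% at 11.5% against 19.5%, and levels above 80% at 21.4% against 39.3%. A CpG of the set had a median of 26 listed CpGs within 250 bp, against 7 for the others. It lay within 1000 bp of the end of a protein-coding gene or lncRNA in 53.2% of cases, against 34.2%. Mean levels of the set were 27.1% ± 0.0816 in KO and 27.0% ± 0.102 in WT (SD, n = 2 each; difference 0.0734 points, two-sided exact permutation p = 0.667). With 2 libraries a group, no such p can fall below 0.33.

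The strands of a CpG carried nearly the same level. Averaged over the set, the forward strand minus the reverse strand was 0.000178 and -0.0531 points in KO and -0.0159 and 0.00245 points in WT. Across CpGs, which are not independent replicates, Pearson's r between strands lay between 0.980 and 0.982 in the 4 libraries. The strands were within 10 points of each other at 87.5% and 87.5% of CpGs in KO and 86.5% and 87.3% in WT. They were more than 50 points apart at 105 and 98 CpGs in KO and 123 and 106 in WT. The forward minus reverse mean did not differ between genotypes beyond the spread (difference -0.0197 points, exact permutation p = 0.667).

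Counting error alone gives 2 shallow strands different levels, so the binomial variance of each strand was subtracted from the squared difference. The root mean square difference that remained was 2.09 and 2.10 points in KO and 1.94 and 2.24 points in WT. It averaged 2.09 ± 0.00384 points in KO and 2.09 ± 0.213 points in WT (SD, n = 2 each; difference 0.00621, exact permutation p = 1). The same measure on 1 strand was 2.07 points between the KO libraries and 2.14 points between the WT libraries. Between a KO and a WT library it was 2.48 to 2.61 points. At CpGs of 20% to 80% the strands differed by 4.74 and 4.70 points in KO and 4.12 and 5.01 points in WT. There the KO libraries differed by 5.17 points, the WT libraries by 5.21 points, and KO from WT libraries by 6.43 to 6.63 points. The part of the strand difference that 2 libraries shared, from the product of their differences, was 1.97 to 2.05 points over all CpGs of the set. Shared values within a genotype, 1.97 points for KO and 2.00 points for WT, lay within the range between genotypes. At CpGs below 20% the order turned: strands of a library differed by 1.11 to 1.22 points, and libraries on 1 strand by 0.865 to 0.978 points. At CpGs above 80% the strands of a library differed by 1.96 to 2.40 points. There the KO libraries differed by 1.84 points and the WT libraries by 2.10 points. KO from WT libraries differed by 1.79 to 2.33 points, so they did not stand apart at that level.

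**Figure D1:**
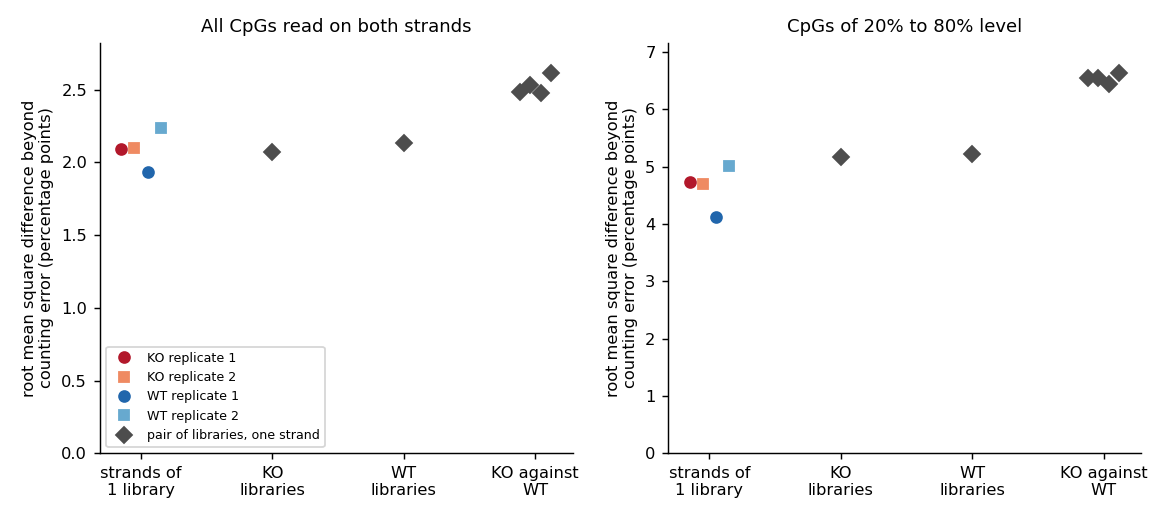
Root mean square difference in level beyond counting error, in percentage points, for all CpGs read on both strands and for those of 20% to 80% level. Coloured points compare the strands of 1 library (KO, then WT), grey diamonds compare libraries on 1 strand; the 4 comparisons of a KO with a WT library lie highest in both panels, at 2.48 to 2.61 and at 6.43 to 6.63 points.

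Part of that shared difference sat at a small number of CpGs. Forward and reverse reads were compared at each CpG with a one-step odds ratio stratified by library, the spread between libraries being moderated with limma and held at no less than counting error. A CpG was called at a Benjamini-Hochberg adjusted p under 0.05 and a mean difference of at least 10 points. Of 202259 CpGs of the set with both methylated and unmethylated reads in some library, 322 were called (0.159%). The forward strand was higher at 152 of them (0.0752%) and the reverse strand at 170 (0.0841%). The estimated dispersion was close to 1 (1.004), so these p-values reflect read counts. Fisher's exact test on reads summed over libraries, chosen after seeing the data, called 332, of which 295 were the same. Leaving out 1 library gave 170 to 209 calls, and 125 CpGs were called whichever library was left out. Without the called CpGs, the strand difference beyond counting error was 1.43 to 1.79 points, and the part shared by 2 libraries was 1.47 to 1.58 points. The called CpGs were chosen by their strand difference in the same libraries, which favours such a drop. A dispersion prior taken from all CpGs instead called none (lowest adjusted p = 0.261; 2565 CpGs at unadjusted p under 0.05).

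Calls differed in the levels of the strands. At 177 of the 322 (54.97%), the lower strand was at 20% or less and the higher one under 80%, a class that held 67.6% of the whole set. At another 102 (31.7%, against 2.80% of the set) the higher strand was at 80% or more and the other between 20% and 80%, and at 20 the higher strand reached 80% with the other at 20% or less. The difference was at least 20 points at 192 called CpGs and at least 50 points in every library at 38. All 4 libraries had the same sign at 288. The higher strand was the shallower one at 249 called CpGs (77.3%), against 48.5% over the whole set. Depth differed between strands by a factor of 4 or more at 45 called CpGs (13.98%), against 0.120% of the set, and 31 had a strand of at least 500 reads. A role of the depth gap in these calls was not tested. Of the 282 groups formed by called CpGs at most 100 bp apart, 257 held a single CpG. Another 18 groups held 2, and 7 groups held 3 or more (29 CpGs), each of these 7 in 1 direction.

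Among the calls with 20 or more reads on each strand, the CpG in Rhobtb1, which encodes a BTB-domain protein, had the largest forward excess (chr10, forward position 69197015). Its forward strand was at 100% in all 4 libraries. Its reverse strand was at 4.35% and 0% in the KO libraries and 6.82% and 7.27% in the WT libraries, on 44 to 55 reads (difference 95.4 ± 3.33 points, SD, n = 4; adjusted p = 1.35e-58, moderated stratified odds ratio). The KO libraries lay below the WT libraries on the reverse strand, but neither that strand (adjusted p = 0.762) nor the summed strands (adjusted p = 0.781) gave a KO against WT call. In the other direction, a CpG in the lncRNA gene Gm12496 (chr4, 53392825) was at 18.9% and 17.9% on the forward strand in KO and 15.2% and 18.1% in WT. Its reverse strand was at 100% in every library (difference -82.5 ± 1.61 points; adjusted p = 9.04e-62). A CpG 222326 bp from BC030500, the nearest gene, had the same form, at 10.4% and 16.3% forward in KO, 23.9% and 23.9% forward in WT, and 100% on the reverse strand throughout (-81.4 ± 6.51 points). In Sfi1, which encodes a centrin-binding centrosomal protein, the forward strand was at 24% and 19.05% in KO and 23.8% and 20.8% in WT. The reverse strand there was at 91.5% and 90.4% in KO and 81.8% and 84.6% in WT (-65.2 ± 5.68 points; adjusted p = 4.49e-66). The differences were -48.4 ± 11.8 points at a CpG in Tmem267 and -44.2 ± 1.57 points at one 85409 bp from Nr5a2, a gene for a nuclear receptor of the liver.

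Other forward excesses of that rule lay where 1 strand was very deeply read. In Cdk8, the kinase of the Mediator complex, 3 CpGs from 146261119 to 146261177 on chromosome 5 had 21 to 43 forward reads and 2328 to 3317 reverse reads. Their forward strand averaged 77.6% to 95.4% and their reverse strand 4.08% to 5.81%. A CpG 2090 bp from AY036118 on chromosome 17 had 66 to 131 forward and 1943 to 2325 reverse reads, with strand means of 91.2% and 5.30%. Such depths are far above the medians of the set. Without the 272 CpGs of the set that had a strand of 500 reads or more, an alternative chosen after seeing the data, 291 calls were made.

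With those CpGs and with depth ratios of 4 or more left out, a choice also made after values were seen, further CpGs showed nearly complete asymmetry. In Itpk1, an inositol phosphate kinase gene, the forward strand was at 92.3% and 95% in KO and 91.7% and 91.9% in WT, while no reverse read was methylated among 11 to 15 in each library. In Gm40681 no forward read was methylated among 12 to 18, and the reverse strand was at 80% and 83.3% in KO and 85% and 90% in WT. A CpG in Wdr20, whose product regulates deubiquitinases, varied more, at 33.3% and 20% forward in KO and 11.1% and 9.38% in WT. The reverse strand there was at 82.8% and 88.5% in KO and 100% in both WT libraries (-74.4 ± 19.4 points).

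**Figure D2:**
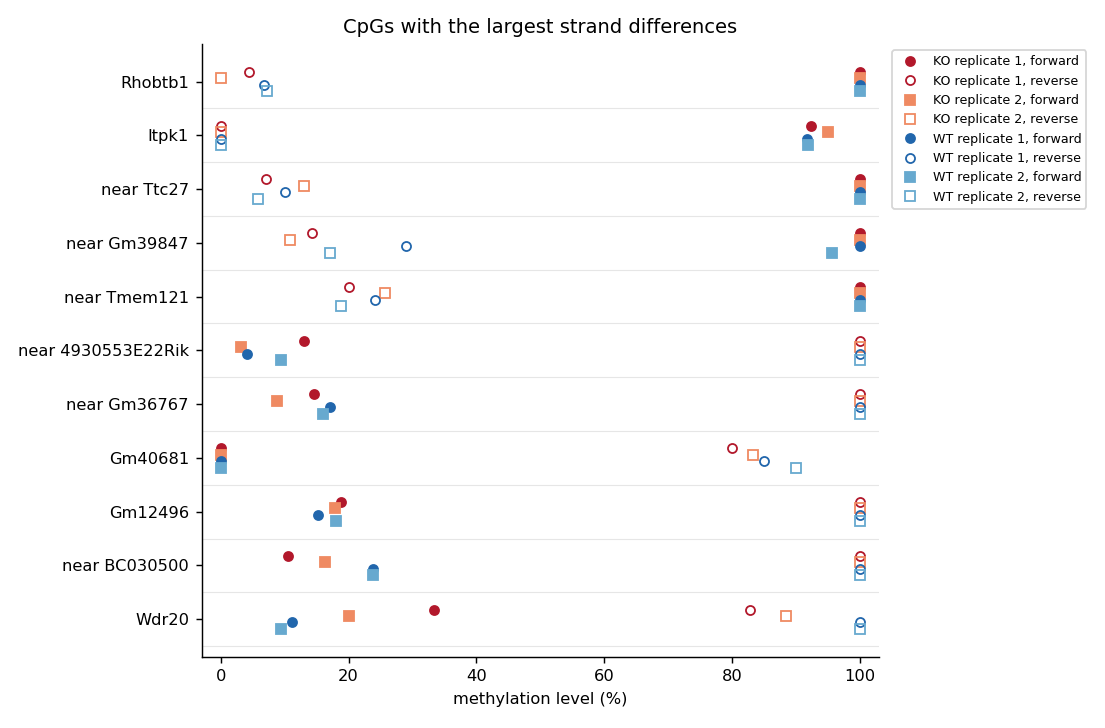
Methylation level (%) of the forward strand (filled) and the reverse strand (open) in each library (KO red, WT blue) at the called CpGs with the largest strand difference, leaving out depth ratios of 4 or more, strands of 500 reads or more and CpGs where genes overlap. Each row is 1 CpG, named by the gene it lies in or near; filled and open points stand apart in every library of every row, with Wdr20 the most variable (-74.4 ± 19.4 points).

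Some calls ran along a stretch, but most groups held a single CpG. Within 50 bp of called CpGs of 20 points or more lay 282 CpGs that were not called. Their difference in the called direction had a median of 0 points (quartiles -1.67 and 2.20), though being uncalled favours a small value. Each of the 7 groups of 3 or more called CpGs had a single direction, but CpGs so close can share reads. Several of these groups lay in sequence with very unequal strand depth. The 7 called CpGs 3001 bp from LOC115490388 had a mean of 1732 forward and 20.2 reverse reads, and the 3 in Cdk8 had 30.8 and 2861. The groups of 4 near AY036118 had 24.6 forward and 840 reverse reads, and 13.9 and 1735. In Vmn2r29, a vomeronasal receptor gene, 5 called CpGs from 7278134 to 7278187 on chromosome 7 averaged 9.10% to 31.8% on the forward strand and 79.2% to 86.8% on the reverse strand. Mean depth there was 18.2 forward and 96.95 reverse reads. In Tmtc2, which encodes an O-mannosyltransferase of the endoplasmic reticulum, 3 called CpGs averaged 90.8% to 96.5% forward and 49.3% to 52.8% reverse. Their mean depth was 17.9 forward and 33 reverse reads. Near Krt18, a keratin gene expressed in hepatocytes, a called CpG at 102027922 on chromosome 15 was at 55.6% and 58.1% forward in KO and 75.7% and 70.5% in WT. The reverse strand stood at 10.5% and 21.4% in KO and 13.6% and 16.7% in WT (49.4 ± 10.9 points; adjusted p = 4.31e-09). In Pdia3, a protein disulphide isomerase gene, a CpG at 121427172 on chromosome 2 was at 54.1% and 54.3% forward in KO and 43.8% and 53.1% in WT. The reverse strand of that CpG was at 100% and 92.3% in KO and 100% and 88.2% in WT (-43.8 ± 9.46 points; adjusted p = 2.57e-06).

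Some calls could be placed relative to cut sites where RefSeq promoter sequence was at hand. In all, 29365 CpGs of the set lay in 6674 of 31396 autosomal promoter windows. CCGG occurs in 52.8% of all promoter windows and TCGA in 22.0%, both being their own reverse complement and not overlapping each other. Of the 18227 tested CpGs that could be placed, 19 were called. Of those, 18 lay in CCGG (2732 tested), none in TCGA (221 tested) and 1 elsewhere (15274 tested). At the 18 CCGG calls the higher strand averaged 10.3% to 35.2% (median 14.6%), and the lower strand averaged below 1% at 15.

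The strand difference at CCGG varied with the distance to the next cut site. For each CCGG of the set and a neighbouring CCGG or TCGA in the same window, the inbound strand is the one that, read 5′ to 3′, passes the neighbour first and then reaches the CCGG. The other is the outbound strand. Where the neighbour lay 60 to 64 bp away (365 pairs), the inbound strand averaged 7.69% and 6.72% in the KO libraries and 7.17% and 7.23% in the WT libraries. The outbound strand averaged 2.40% and 2.60% in KO and 2.72% and 2.53% in WT. Inbound minus outbound was 5.29 and 4.12 points in KO and 4.45 and 4.70 points in WT, a mean of 4.64 ± 0.492 points (SD, n = 4; two-sided exact sign-flip p = 0.125, the smallest possible). The inbound strand was higher in 327 of the 365 pairs, lower in 31 and equal in 7. The genotypes overlapped (KO minus WT 0.129 points, exact permutation p = 1).

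At other distances the sign was mostly turned. From 30 to 54 bp inbound minus outbound was -0.540 ± 0.149 points (1364 pairs), and from 70 to 129 bp it was -0.432 ± 0.0438 points (2569 pairs), below 0 in all 4 libraries in both ranges. In single-base steps the mean was 0.0635 points at 57 bp, 1.26 at 58, 2.02 at 59, 2.82 at 60, 5.01 at 61, 5.81 at 62, 5.12 at 63, 4.34 at 64, 3.16 at 65 and 0.615 at 66, on 57 to 88 pairs each. The distance range was picked after these values were seen. Of the 18 calls, 10 had a neighbour 60 to 64 bp away, as had 353 of the 4328 CCGG CpGs of the set, and at 9 of the 10 the inbound strand was the higher one. Among pairs 30 to 54 bp apart 9 were at called CpGs, with the inbound strand higher in 1, and among pairs 70 to 129 bp apart 4 were, with it higher in 1.

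**Figure D3:**
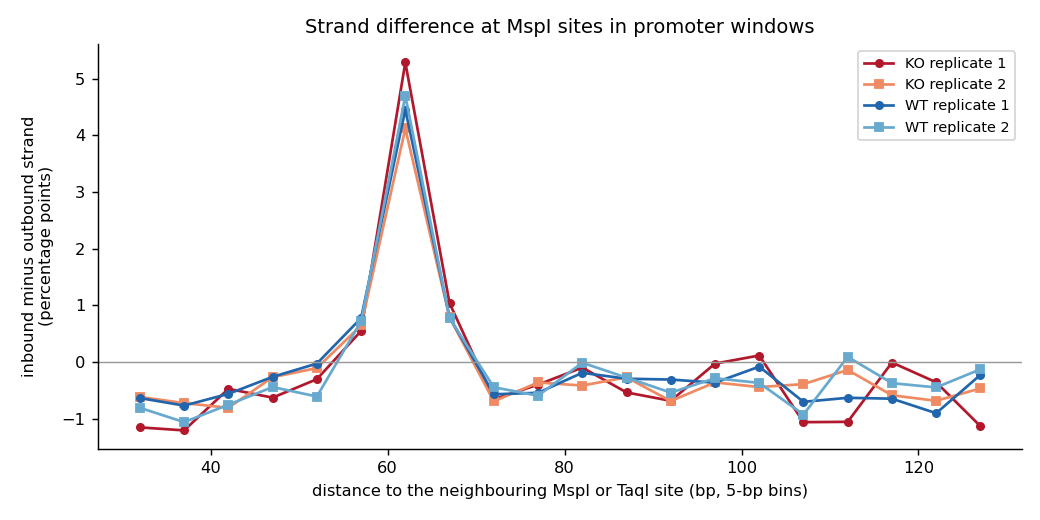
Inbound minus outbound methylation level (percentage points) at MspI sites of the set in promoter windows, by distance to the neighbouring MspI or TaqI site (5-bp bins, drawn at the bin's middle), 1 line for each library. All 4 libraries peak in the bin of 60 to 64 bp, at 4.12 to 5.29 points, with smaller positive values in the bins on either side.

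Stretches with such a pair of sites are shown for the 4 with the largest strand difference among called CpGs higher on the inbound strand. They are given as the forward strand of GRCm38.p6, 5′ to 3′, with both sites of the pair in capitals and 10 flanking bases on each side, or as many as the window holds.
H1f0, chr15:79028147-79028230 (+ strand): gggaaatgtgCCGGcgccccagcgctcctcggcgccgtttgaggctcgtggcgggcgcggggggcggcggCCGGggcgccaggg
Ets2, chr16:95702217-95702304 (+ strand): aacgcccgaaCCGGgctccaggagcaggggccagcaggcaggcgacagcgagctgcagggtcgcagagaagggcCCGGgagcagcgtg
Nme2, chr11:93955822-93955907 (+ strand): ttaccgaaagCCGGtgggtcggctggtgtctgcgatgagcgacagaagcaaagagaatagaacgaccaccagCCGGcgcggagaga
Rab21, chr10:115315764-115315841 (+ strand): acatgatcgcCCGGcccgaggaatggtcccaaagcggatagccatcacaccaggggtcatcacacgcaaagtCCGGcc
Near H1f0, a linker histone gene, the first of the pair was the called CpG (forward position 79028158), and its neighbour lay 60 bp to the right. No forward read was methylated there among 20 to 26 in each library. Its reverse strand, the inbound one, was at 14.3% and 12.5% in KO and 17.6% and 23.5% in WT (-17.0 ± 4.85 points; adjusted p = 0.0308). Near Ets2, an ETS transcription factor gene, the second of the pair was called, 64 bp from the first. Its forward strand was at 19.05% and 0% in KO and 21.4% and 25% in WT, and no reverse read was methylated among 19 to 33. In Nme2, a nucleoside diphosphate kinase gene, the second site, 62 bp from the first, was at 14.3% and 26.7% forward in KO and 5.26% and 14.3% in WT, with 0% on the reverse strand throughout. In Rab21, a gene for an endosomal GTPase, the forward strand of the second site was at 16.7% and 13.3% in KO and 27.3% and 0% in WT, again with 0% on the reverse strand. These 4 CpGs were picked as higher on the inbound strand, so their common direction adds nothing. KO replicate 2 near Ets2 and WT replicate 2 in Rab21 had no methylated read on that strand. The call of the 10 that went the other way lay in Tuba1a, with its neighbour 60 bp to the right. Its outbound forward strand was at 0% and 50% in KO and 37.5% and 53.3% in WT. Its inbound reverse strand was at 0% and 15.8% in KO and 6.67% and 4.17% in WT. That difference, 28.6 ± 20.6 points, was larger than any of the 4 shown.

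Some pairs of called CpGs outside the promoter windows were mirrored, and those given here were picked after their values were seen. In Gss, the glutathione synthetase gene, called CpGs at 155592494 and 155592557 on chromosome 2 faced each other. The left one was at 0% forward in every library, with 14.3% and 7.69% reverse in KO and 38.5% and 16.7% in WT. The right one was at 7.14% and 14.3% forward in KO and 28.6% and 12.5% in WT, with 0% reverse in every library. In Ranbp10, which encodes a Ran-binding protein, CpGs at 105826807 and 105826870 on chromosome 8 did the same. The left one was at 16.7% and 22.2% reverse in KO and 15.8% and 5.56% in WT, and the right one at 12% and 9.09% forward in KO and 15.8% and 14.8% in WT. The opposite strand was at 0% at both CpGs in every library. Other pairs were not mirrored. Near Rrp12, called CpGs at 41896493 and 41896558 on chromosome 19 both averaged 0% forward, and 27.2% to 31.1% reverse. The sequence around these pairs was not used here.

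CpGs that were not cut sites showed a smaller, graded difference. At 18089 such CpGs with a site on each side in the window, sites were a median of 70 bp apart. They were binned by offset, the distance to the left site minus that to the right site. Forward minus reverse was -0.741 ± 0.255 points below an offset of -40 bp, -0.568 ± 0.125 from -40 to -21, -0.172 ± 0.0852 from -20 to -1, 0.184 ± 0.0483 from 0 to 19, 0.561 ± 0.174 from 20 to 39 and 0.833 ± 0.298 from 40 up (SD, n = 4). Every library followed this order of signs. At the 9689 CpGs with an offset of at least 20 bp in size, the strand whose 5′ site was nearer was at 1.73% and 1.73% in KO and 1.79% and 1.82% in WT. The strand whose 5′ site was farther was at 2.60% and 2.20% in KO and 2.39% and 2.35% in WT. Nearer minus farther was -0.618 ± 0.178 points (exact sign-flip p = 0.125), at -0.672 ± 0.284 in KO and -0.565 ± 0.0540 in WT (exact permutation p = 1).

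**Figure D4:**
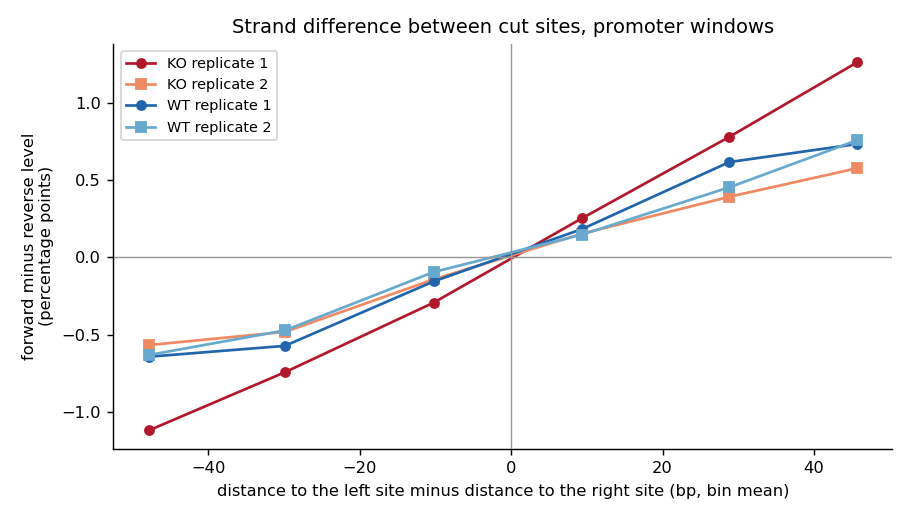
Forward minus reverse methylation level (percentage points) at CpGs between cut sites in promoter windows, by the distance to the left site minus the distance to the right site (bp, mean of each bin), 1 line for each library. All 4 lines run from negative to positive, with KO replicate 1 the steepest, from -1.12 to 1.26 points.

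Whether genotype changed the strand difference was tested at 136541 CpGs, and 2 were called (0.00146%). KO had the lower signed forward minus reverse value at both. They lay in very deeply read sequence, in AY036118 on chromosome 17 and in Cdk8, and are described with the values that set them apart at the end. Forward minus reverse was -75.0 points in KO and -30.2 points in WT in AY036118, where the KO strands lay further apart. In Cdk8 it was 86.2 points in KO and 96.5 points in WT, where they lay closer together. With log odds ratios that add 0.5 to each count and allow for counting error only, chosen after seeing the data, no CpG was called (lowest adjusted p = 0.99998; 1987 CpGs at unadjusted p under 0.05).

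KO and WT were then compared on summed strands, with a moderated quasi-binomial model fitted to all nuclear CpGs that could be tested. Calls used the same thresholds. The dispersion pooled over CpGs was 1.17 with 52.64 prior degrees of freedom, so the spread at a CpG itself weighed little in its p-value. Of the set, 61 CpGs were called (0.0302%), against 128 of 1061716 other CpGs (0.0121%). The set is the more deeply read by its rule, and the part of depth in this gap was not tested. KO was higher at 52 (0.0257%) and lower at 9 (0.00445%). In whole liver, a shift in level and a shift in the mixture of cells cannot be told apart. No CpG was called with any 1 library left out (4068 to 4841 CpGs of the set at unadjusted p under 0.05; lowest adjusted p 0.166 to 0.828). Each of these fits leaves 1 genotype with a lone library, whose spread is assumed to be that of the other genotype, and the prior degrees of freedom fell to 6.57 to 8.35, against 52.64 with all libraries. The difference of the 61 kept its sign at 59 to 61 of them, with medians of 34.7 to 36.9 points. With the strands taken singly, in 1 table of all cytosines, 14 forward cytosines (0.00843%) and 13 reverse cytosines (0.00776%) were called, both at 7 CpGs.

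The 61 CpGs differed the same way on both strands, a direction that the sum of strands largely fixes. Where KO was higher, the median difference was 37.2 points on the forward strand and 39.8 on the reverse strand. Where KO was lower, it was -27.5 and -27.6 points. The gap between the strands' differences had a median of 7.11 points. KO and WT libraries did not overlap on either strand at 53 of the 61. These CpGs were chosen by their KO against WT difference in the same libraries, which favours such a separation. Its share over the whole set was not counted, so nothing is read from it.

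The largest differences were all-or-none. In Slc45a4, a solute carrier gene, the CpG at 73586292 on chromosome 15 was at 88.5% and 89.5% forward in KO and 0% in both WT libraries. On the reverse strand it was at 95% and 87.1% in KO and 0% in both WT libraries (summed strands 89.7 points, adjusted p = 1.73e-12, quasi-binomial model). A CpG 66917 bp from Gm32918 was at 87.5% and 77.8% forward and 81.8% and 92.9% reverse in KO, and at 0% on both strands in WT. These were the 2 CpGs of the set with both KO libraries at 70% or more and both WT libraries at 10% or less on each strand, and none had the opposite pattern. A CpG 2020 bp from Mroh4 came close, at 92.3% and 86.7% forward and 84.6% and 68.8% reverse in KO and at 0% on both strands in WT. In Nptx2, a neuronal pentraxin gene, WT replicate 2 stood between, at 24% forward and 62.5% reverse. WT replicate 1 was at 0% there on both strands, and the KO libraries were at 90.9% to 100%. Of the 61, 16 lay on chromosome 15, which holds 12042 of the 262021 CpGs of the set. In Gramd4, also there, KO replicate 1 stood at 96.3% forward and 100% reverse and KO replicate 2 at 43.5% and 57.1%. The WT libraries were at 0% and 4% forward and 0% reverse. In Casq2, the cardiac calsequestrin gene, the call rested on KO replicate 1, at 90% forward and 90.9% reverse, the other 3 libraries being at 0% on both strands.

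The following calls are named for the genes' known roles, after values were seen. In Cyp7a1, whose enzyme limits the making of bile acids, the forward strand was at 81.8% ± 8.13 in KO and 53.7% ± 10.7 in WT, and the reverse strand at 81.4% ± 1.99 in KO and 53.997% ± 14.9 in WT (SD, n = 2 each; adjusted p = 0.0436). In Alas1, the rate-limiting enzyme of haem synthesis, it was 66.4% ± 0.421 in KO and 32.0% ± 9.92 in WT forward, and 56.8% ± 13.99 in KO and 28.6% ± 7.87 in WT reverse (adjusted p = 0.0224). A CpG 2322 bp from Hmox1, which breaks haem down, was at 66.8% ± 4.11 in KO and 25.3% ± 11.4 in WT forward, and 72.1% ± 11.2 in KO and 29.6% ± 3.34 in WT reverse (adjusted p = 0.000601). In Esr1, the oestrogen receptor alpha gene, the values were 63.8% ± 0.722 in KO and 27.0% ± 1.88 in WT forward, and 59.9% ± 2.84 in KO and 19.96% ± 5.90 in WT reverse. Nfib and Nfic, genes of the nuclear factor I family, held 1 and 4 called CpGs in or within 1959 bp of them, all higher in KO. At the Nfic CpG at 81420526 on chromosome 10, KO minus WT was 38.8 points forward and 14.01 points reverse. The Nfib CpG was at 69.4% ± 3.93 in KO and 26.2% ± 0.608 in WT forward, and at 76.2% ± 2.71 in KO and 41.1% ± 2.45 in WT reverse. Foxa1, a pioneer factor of liver, held the only call among the 144 tested CpGs of hepatocyte marker genes, against 0.0302% over the set. That CpG was at 35.1% ± 18.7 in KO and 1.47% ± 2.08 in WT forward, and 25.3% ± 6.06 in KO and 8.93% ± 7.58 in WT reverse.

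Among the 9 CpGs lower in KO, 3 lay in Bik, a pro-apoptotic BH3-only gene. The CpG at 83527472 was at 10.8% and 9.52% forward in KO and 44.4% and 52.4% in WT, and at 5.88% and 10% reverse in KO and 35.3% and 42.9% in WT (summed -34.7 points, adjusted p = 0.02). In Hapln4, a hyaluronan link protein gene, 2 CpGs were at 0% to 5.13% on either strand in KO and at 16% to 32% in WT. In Fam47e and near Prss16 the difference came from 1 KO library each. Fam47e was at 88.5% and 44.1% forward in KO and 95.8% and 100% in WT.

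At 3 called CpGs the strands' differences lay more than 30 points apart. In Wdr11, a WD-repeat gene, the forward strand was at 100% and 91.7% in KO and 100% in both WT libraries. Its reverse strand was at 45% and 48.6% in KO and 100% and 95% in WT (reverse -50.7 points, adjusted p = 0.0145; forward -4.17 points, adjusted p = 0.762). In Fam20c, a secretory-pathway kinase gene, the forward strand was at 97.1% and 96.2% in KO and 90.9% and 100% in WT. The reverse strand there was at 91.7% and 100% in KO and 47.6% and 39.1% in WT (reverse 52.5 points, adjusted p = 0.049; forward 1.15 points, adjusted p = 0.994). These 2 were also called for the strand difference. In Wwox, a tumour suppressor gene at a fragile site, KO minus WT was 27.1 points forward and 59.5 points reverse. The change of the strand difference with genotype passed at none of the 3 (adjusted p = 1 in Wdr11, 0.940 in Fam20c and 0.940 in Wwox).

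**Figure D5:**
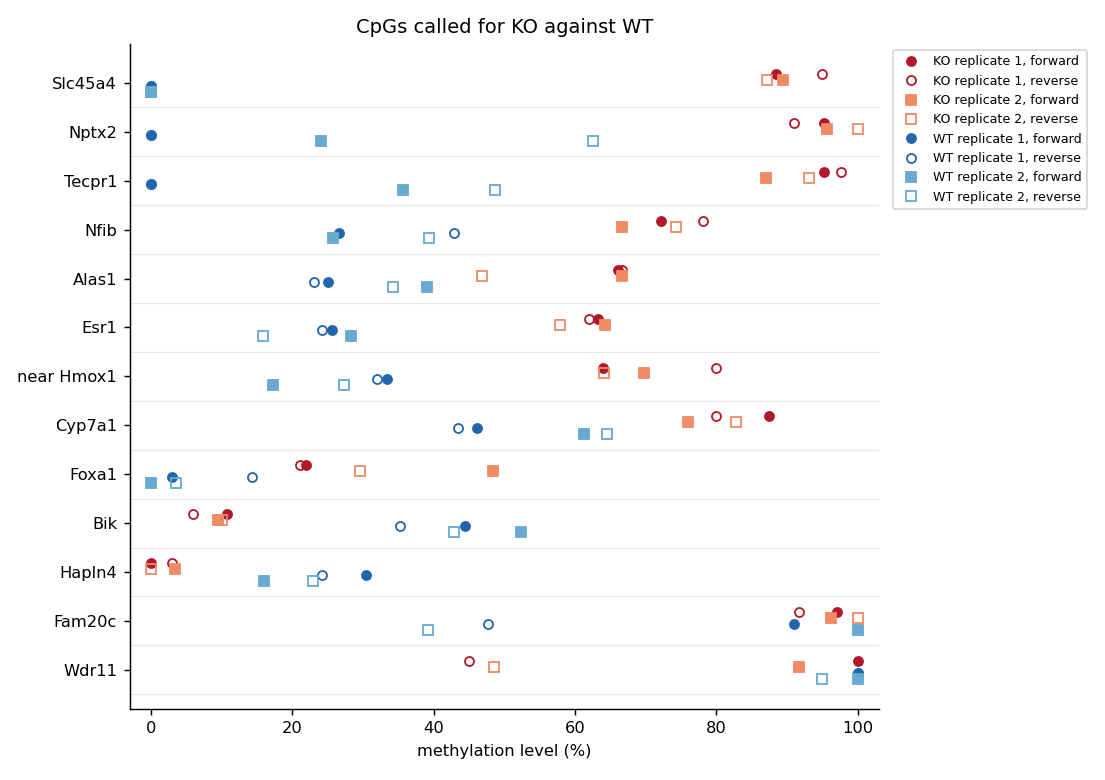
Methylation level (%) of the forward strand (filled) and reverse strand (open) in each library (KO red, WT blue) at called CpGs of the genes named in the text, 1 for each gene. Strands lie close together in most rows while KO and WT stand apart; in Fam20c and Wdr11 only the reverse strand separates the genotypes.

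Gene lists were described by the CpGs of the set in or within 2 kb of their genes. Imprinted genes, methylated on 1 parental allele at their control regions, held 399 CpGs of the set, of which 225 (56.4%) had a level of 20% to 80%, against 11.5% of the whole set. None of the 365 tested was called for strand or genotype, against 0.159% and 0.0302% over the set, and nothing is read from that. None of the 225 was called for strand, against 131 of the 30010 CpGs of that level in the set. At the 225, the forward strand averaged 40.7% and 41.1% in KO and 42.5% and 43.3% in WT, and the reverse strand 38.7% and 40.4% in KO and 44.5% and 40.8% in WT. Their median absolute strand difference was 4.91 points, against 5.16 points over all CpGs of that level. Gnas had most, 112 CpGs, at 28.7% ± 0.198 in KO and 30.5% ± 0.534 in WT forward, and 28.7% ± 1.72 in KO and 30.04% ± 1.05 in WT reverse. Hox genes, body-axis regulators silent in liver, held 834 CpGs at 5.54% ± 0.761 in KO and 5.30% ± 0.108 in WT forward, and 5.01% ± 0.202 in KO and 5.33% ± 0.112 in WT reverse, with no call among 782 tested. Germline genes, shut by promoter methylation in somatic tissue, held 59 CpGs at 59.5% ± 1.35 in KO and 60.8% ± 0.294 in WT forward, and 58.4% ± 1.14 in KO and 61.5% ± 1.57 in WT reverse, with no call among 58 tested. At these shares over the set, nothing is read from the lack of calls in either list.

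The 219 CpGs in methyl donor genes averaged 21.2% ± 0.252 in KO and 20.7% ± 0.199 in WT on the forward strand and 21.2% ± 0.489 in KO and 21.5% in both WT libraries on the reverse strand, with no genotype call among 157 tested. The 434 CpGs of phosphatidylcholine and lysophospholipid genes (304 tested) and the 361 of the DNA methylation machinery (260 tested) held no call, and nothing is read from that either. The lipid list held 154 tested CpGs higher and 149 lower in KO (median 0), against 102215 higher and 99543 lower over the set (median 0). The methylation tracks do not check the Pnpla7-/- genotype itself. Pnpla7 held 20 CpGs of the set within 2 kb, at 15.1% ± 0.654 in KO and 15.1% ± 0.156 in WT forward, and 14.5% ± 1.66 in KO and 15.1% ± 0.641 in WT reverse. In its body, the CpG at 25039655 on chromosome 2 was at 100% and 92.9% forward in KO and 95.5% and 100% in WT, and at 93.8% and 100% reverse in KO and 100% and 93.8% in WT. The CpG at 25044013 was at 80.8% and 80% forward in KO and 93.3% and 83.3% in WT, and at 64.7% and 91.7% reverse in KO and 92.3% and 87.5% in WT (summed -9.83 points, adjusted p = 0.781, not called). Markers of hepatocytes gave 161 CpGs, at 20.2% ± 1.12 in KO and 18.2% ± 0.405 in WT forward, and 20.4% ± 0.924 in KO and 18.3% ± 0.362 in WT reverse. Of the 144 tested, 95 were higher and 49 lower in KO (median 0.575 points). Foxa1 held 58 of the 161 and Foxa2 48, at group means of 3.05% or less on either strand, so these counts lean on few genes. Genes went both ways on the forward strand. Tat averaged 44.1% ± 9.72 in KO and 25.4% ± 6.44 in WT, and Ttr 86.1% ± 9.51 in KO and 96.7% ± 4.71 in WT. The 42 leukocyte CpGs stood at 30.3% ± 0.790 in KO and 29.98% ± 0.677 in WT forward, and 29.96% ± 1.42 in KO and 30.8% ± 0.635 in WT reverse. The 44 endothelial CpGs were at 56.2% ± 2.10 in KO and 58.3% ± 1.13 in WT forward, and 54.6% ± 0.0107 in KO and 56.1% ± 0.519 in WT reverse. The 23 of stellate cells and fibroblasts were at 53.01% ± 0.522 in KO and 52.3% ± 0.296 in WT forward, and 52.2% ± 0.615 in KO and 52.96% ± 0.552 in WT reverse. The 25 of cholangiocytes were at 11.7% ± 1.79 in KO and 11.3% ± 3.73 in WT forward, and 11.5% ± 0.0856 in KO and 13.2% ± 0.434 in WT reverse. For leukocytes, stellate cells and fibroblasts, and cholangiocytes, the strands gave KO and WT in opposite order. The hepatocyte CpGs held 1 genotype call among 144 tested, in Foxa1, against 0.0302% over the set. The other 4 lists held none among 31, 42, 23 and 19 tested, in the order given. Nothing is read from these counts. A part of cell makeup in the calls was not tested.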

How the data were processed

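Liver DNA was cut with TaqI and then MspI, ligated to adaptors, end-repaired, treated with bisulfite and then amplified, as the labels' protocols give it. The authors deposited, for each library, a track with the methylation level of each cytosine as a fraction and a track with its read coverage, both signed by strand, on mm10 and named as GBSA output, per the file headers. Tools named in the submitters' processing notes are MACS and BWA 0.7.12, with no role given. Each library has its own files. Level times coverage gave whole counts of methylated reads at every cytosine (tolerance 1e-06), and those counts were tested.

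Strands were compared by one-step log odds ratios stratified by library, with the dispersion between libraries moderated by limma 3.58.1 (prior from CpGs with a binomial variance of 5 reads or more, held at 1 or above). The change with genotype was the difference of these log odds ratios, and KO was set against WT by a quasi-binomial model moderated the same way. All p-values were Benjamini-Hochberg adjusted over the whole table of each test, and calls needed an adjusted p under 0.05 and 10 points. Scripts ran in Python 3.11.15 with numpy 2.4.6, scipy 1.17.1, pandas 2.3.3 and matplotlib 3.10.9, and in R 4.3.3, and were tested on simulated data. Genes, promoters and their sequences came from RefSeq on GRCm38.p6.

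Members, gene lists and tests were chosen with earlier results of these data known. The text names the 5 called CpGs with the largest strand difference in each direction (20 reads or more per strand, same sign in all libraries), up to 5 KO against WT calls each way, called changes of the strand difference, CpGs in Pnpla7, and list genes with most members. Other CpGs were named after their values were seen. Same-numbered replicates did not deviate together, so the numbers were not used as pairs. Alternatives varied the coverage minimum, dispersion, size threshold, weighting, deep CpGs, libraries left out and test. Some results at single genes are not reported here.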

Additional observations from a re-analysis of the deposited data

Results flagged for a closer look

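The strand difference was called as changed with genotype at 2 CpGs, by the test of that change itself. The estimated dispersion was close to 1 (1.001), so the p-values of that test reflect read counts and not the spread within a genotype. Its lowest adjusted p, 1.61e-33, came from the deeply read CpG 2090 bp from AY036118, where the change was only -1.82 points. In AY036118 on chromosome 17 (forward position 39848454), the forward minus reverse difference in KO minus that in WT was -44.8 points (adjusted p = 3.64e-31, difference of stratified log odds ratios moderated with limma). The reverse strand there was at 93.8% and 58.6% in KO and 58.3% and 5.26% in WT on 12 to 29 reads, and the genotypes met at 58.6% and 58.3%. The forward strand was at 1.36% and 1.013% in KO and 1.82% and 1.36% in WT on 1373 to 1875 reads. In Cdk8 (chromosome 5, 146261177) the change was -10.3 points (adjusted p = 5.5e-07). Its forward strand was at 90.9% and 90.7% in KO and 100% in both WT libraries on 33 to 43 reads. Its reverse strand was at 4.55% and 4.72% in KO and 4.03% and 3.03% in WT on 2332 to 3317 reads. With 0.5 added to each count and counting error only, a test chosen after seeing the data, both had an adjusted p of 0.99998. The part of the depth gap between strands in these calls was not tested.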

How the results depend on the processing

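The 322 strand calls became 192 at 20 points or more, 49 with at least 20 reads on each strand (47 of them shared), 17 with at least 30 reads, 170 to 209 without 1 library, and 0 with a dispersion prior from all CpGs. The 2 changes of the strand difference with genotype became 1 at 20 points, 1 at 20 reads, 0 at 30 reads, 0 with the prior from all CpGs, 0 with 0.5 added to each count (added after seeing the data) and 1 to 4 without 1 library. The 61 KO against WT calls on summed strands became 150 (107 higher and 43 lower in KO) with the prior from all CpGs, 205 (140 and 65) with a dispersion of 1, and 0 to 0 without 1 library. The 27 calls on single cytosines became 99, 138 and 0 to 0 under the same settings, and 14 at 20 reads. The replicate block gave 115 calls on summed strands and 69 on single cytosines, but the same-numbered libraries were not shown to pair (r of deviations -0.00943).

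Differences between genotypes in means over CpGs could not pass a test with 2 libraries a group, and turned sign under some settings, the cause not being tested. The strand difference beyond counting error, KO minus WT, was 0.00621 points, and it was -0.0301 at 20 reads, -0.0803 at 30 reads, -0.00731 as an absolute difference thinned to 10 reads, and -0.145 to 0.157 without 1 library, below 0 without WT replicate 1. The mean level difference of 0.0734 points became -0.630 weighted by reads, and 0.00113 to 0.146 without 1 library. The forward minus reverse difference of -0.0197 points became 0.106 at 30 reads, and -0.0463 to 0.00691 without 1 library, above 0 without KO replicate 2. At CpGs of 20% to 80% the strand difference, mean level and forward minus reverse values were 0.152 (exact permutation p = 1), 0.517 (p = 0.667) and -0.193 points (p = 0.33, the smallest possible). Depth limits single CpGs, since 10 reads leave an interval of 18.7% to 81.3%.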
